A study of Mus musculus with 8 samples.

Results

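The G1/S cyclins and E2F factors are 10 mouse genes whose products take a cell from G1 into S phase: the D-type cyclin genes Ccnd1, Ccnd2 and Ccnd3, the E-type cyclin genes Ccne1 and Ccne2, the A-type cyclin gene Ccna2, the activator genes E2f1 and E2f2 and the genes of the atypical repressors E2f7 and E2f8. They were taken by symbol from a deposited table of 22274 genes. Each of the 10 had a single row, and all 10 were among the 14608 genes that passed the filter on low counts. The samples were 8 RNA sequencing libraries of RFB, which the labels give as a fibroblast line from mouse kidney. Every library had TGF-β, the cytokine that turns fibroblasts toward matrix production and that slows the division of many epithelial cells. In 4 libraries it was given alone, and in the other 4 together with chaetocin, a fungal product that inhibits histone H3 lysine 9 methyltransferases such as SUV39H1 and also reacts with redox enzymes. The sources used here give no doses, no times and no number of separate cultures. The p-values therefore measure only how these libraries vary, which may be technical. All values come from 1 cell line, and no library without TGF-β was analysed here. The design text of the series names a SUV39H1 knockdown, which the labels of the 8 samples do not.

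Total counts were 20135312 to 23664084 with TGF-β alone. Replicate 1 with chaetocin had 22591935, and the other chaetocin libraries had 14421225 to 15084876. The share of counts from mitochondrial transcripts was 6.66% to 7.05% with TGF-β alone and 6.65% to 6.70% with chaetocin. The cell type label was set against marker genes, as CPM, the count of a gene scaled to the total count of its library. Markers of both fibroblasts and tubule epithelium ranged from high to low with TGF-β alone. Among fibroblast markers Fn1 (34558 CPM), Acta2 (1199 CPM), Vim (1118 CPM) and Col1a1 (224 CPM) were high, and Col3a1 (7.88 CPM), Pdgfra (3.39 CPM) and Thy1 (1.22 CPM) were low. Among epithelial markers Krt8 (1520.0 CPM), Cldn4 (1111 CPM), Cdh1 (625 CPM) and Epcam (274 CPM) were high, and Aqp1 (4.17 CPM), Umod (0.57 CPM) and Slc34a1 (0.01 CPM) were low. Between these lay Cdh16 (158 CPM), Pax8 (100 CPM) and Lrp2 (65.1 CPM). The summed level of 10 fibroblast markers was 36138 to 38171 CPM with TGF-β alone and 18633 to 20078 CPM with chaetocin, most of it from Fn1, and 1 of the 10 was called higher and 6 lower. Over 11 tubule epithelial markers the sums were 4554 to 4691 and 7596 to 7933 CPM. That rise came from Krt8, which reached 3757 CPM, and Krt18, which went from 781 to 1854 CPM, while of the 10 tested 4 were called higher and 5 lower. The sums over 9 macrophage markers were 320.4 to 357.7 and 206.5 to 247.3 CPM, with 3 called higher and 6 lower. Over 5 endothelial markers they were 48.8 to 54.7 and 85.7 to 93.6 CPM, with 4 called higher and 1 lower. No marker was at 0 in all libraries, although the proximal tubule gene Slc34a1 had at most 2 counts. These sums moved with the treatment, and their part in the values below was not tested.

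In a cell that starts to divide, growth signals raise the D-type cyclins, which bind CDK4 and CDK6 and begin the phosphorylation of the retinoblastoma protein. Phosphorylated retinoblastoma protein releases the activator E2F factors, which switch on the E-type cyclins, cyclin A2 and the genes of DNA synthesis. E2F7 and E2F8 are themselves products of E2F target genes, and they repress such genes later in S phase. TGF-β is known for holding epithelial cells in G1, in part through the CDK inhibitor genes Cdkn2b and Cdkn1a.

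All 10 genes were called different between the treatments (quasi-likelihood test of edgeR, Benjamini-Hochberg adjusted p under 0.05 over all tested genes), where 80.7% of all tested genes were. With chaetocin 9 of the 10 rose and 1, Ccnd2, fell. Of all tested genes 42.0% were called higher and 38.8% lower. In all 10 the libraries of the groups did not overlap, as in 74.7% of all tested genes. At least 2-fold rises were called in 4 of the 10, namely Ccnd1, Ccne2, E2f7 and E2f8, and in 19.7% of all tested genes. The median log2 fold change of the 10 was 0.85, beside 0.02 for all tested genes, whose middle 50% ran from -0.35 to 0.67. These shares and medians describe the genes and are not a test of the group. An exact permutation test of log2 CPM (two-sided) gave p = 0.0286 for each of the 10 genes, the smallest that 4 against 4 libraries allow. In bulk RNA, a larger share of cells in a given phase and more transcript per cell cannot be told apart.

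**Figure D1:**
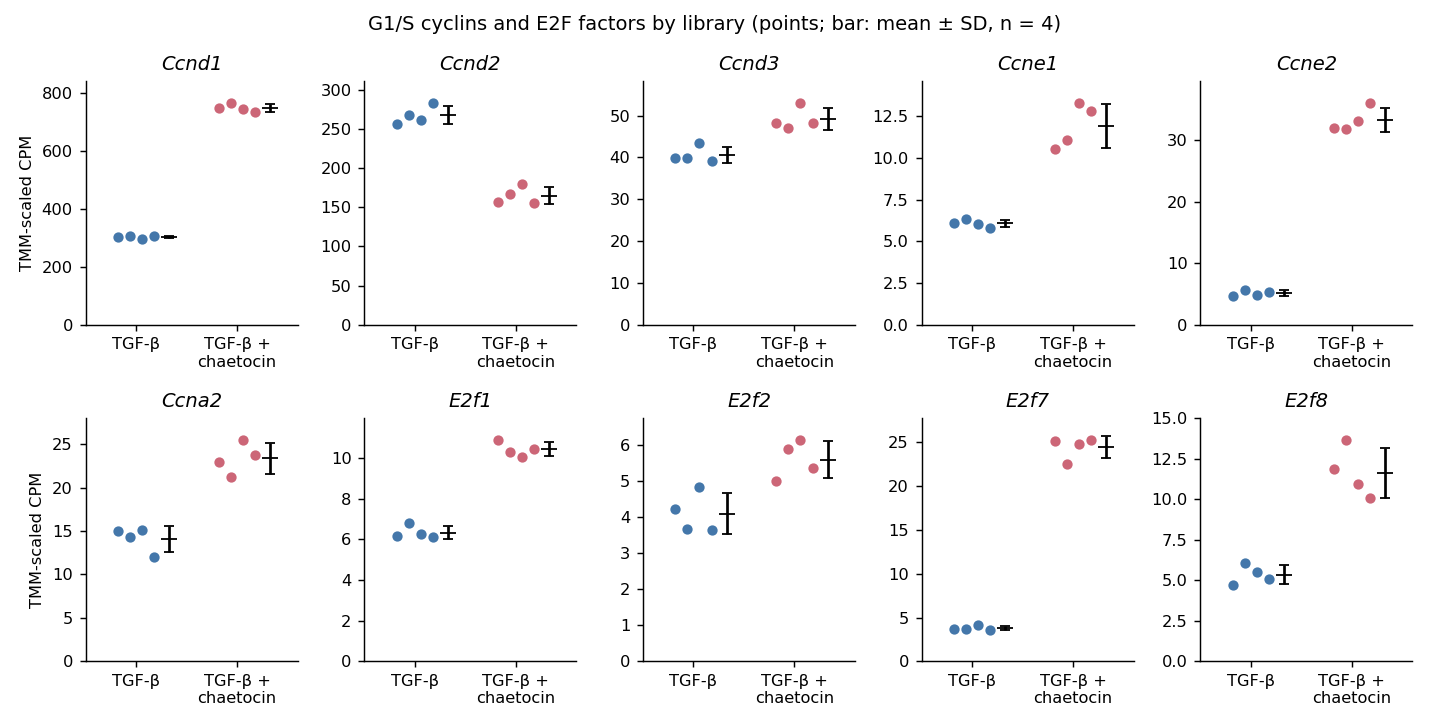
Level of each gene in each library, in CPM after TMM scaling (vertical axes, linear and starting at 0), for TGF-β alone (blue) and TGF-β with chaetocin (red); points are libraries and the black bar is the mean ± SD of 4. Ccnd2 is the only panel in which the red points lie below the blue ones, and the gap is narrowest for E2f2, where the highest blue point is 4.84 and the lowest red point 5.0.

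The D-type cyclins went in opposite directions. Ccnd1, the D-type cyclin most often tied to growth factor signalling, stood at 305, 307, 297 and 307 CPM after TMM scaling (edgeR's correction for library composition, used for all CPM of single genes from here on) in TGF-β replicates 1 to 4 and at 749, 766, 748 and 735 CPM with chaetocin. The groups were far apart and the libraries within each close together. Its mean went from 304 ± 4.64 to 749 ± 13.0 CPM (SD, n = 4 per group), a log2 fold change of 1.30 ± 0.02 (SE; edgeR adjusted p = 7.2e-27) or 2.47-fold. Ccnd2, its paralog, was at 257, 268, 262 and 283 CPM with TGF-β alone and at 157, 167, 179.8 and 155 CPM with chaetocin. Every chaetocin library lay below every TGF-β library. Ccnd2 fell by 0.70 ± 0.04 (SE) on the log2 scale (edgeR adjusted p = 4.2e-16), from 267 ± 11.3 to 165 ± 11.3 CPM (SD, n = 4 per group). Only 10.4% of tested genes had a more negative log2 fold change.

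Ccnd3, the D-type cyclin of many differentiating tissues, had the smallest log2 fold change on counts among the 10. Its levels were 39.9, 39.8, 43.5 and 39.2 CPM with TGF-β alone and 48.3, 47.1, 53.0 and 48.2 CPM with chaetocin. The groups did not overlap, but TGF-β replicate 3 came near the lowest chaetocin library. The log2 fold change was 0.27 ± 0.05 (SE; edgeR adjusted p = 6.0e-06). With counts scaled by total counts alone, edgeR gave 0.39. On the deposited FPKM values, which are divided by gene length and depth, limma gave 0.48 on the log2(FPKM + 1) scale.

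FPKM values allow the 3 paralogs to be set side by side. Ccnd1 made up 55.4% ± 0.72 (SD, n = 4) of the summed D-type FPKM with TGF-β alone and 78.2% ± 1.47 with chaetocin. The share of Ccnd2 went from 29.4% ± 0.86 to 10.5% ± 0.51 and that of Ccnd3 from 15.2% ± 0.96 to 11.3% ± 1.01. With CPM per kilobase of exon in GENCODE, the share of Ccnd3 was only 4.75% with TGF-β alone and 3.07% with chaetocin. The sum itself went from 141 ± 1.56 to 266 ± 8.33 FPKM. The D-type pool was thus larger with chaetocin and held proportionally more Ccnd1 in every library. The ratio of Ccnd1 to Ccnd2 was 1.81 to 1.97 across the TGF-β libraries and 6.81 to 7.94 in the chaetocin libraries.

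Both E-type cyclins, which activate CDK2 at the entry into S phase, rose, Ccne2 by far more. Ccne2 was at 4.73, 5.72, 4.89 and 5.37 CPM with TGF-β alone and at 32.0, 31.9, 33.1 and 36.0 CPM with chaetocin. The chaetocin libraries were all several times above the TGF-β libraries, and the counts behind these values were 99 to 122 and 496 to 749. The log2 fold change was 2.68 ± 0.08 (SE; edgeR adjusted p = 3.4e-22), or 6.41-fold, and 9.02% of tested genes had a larger one. Ccne1 was at 6.11, 6.34, 6.03 and 5.81 CPM with TGF-β alone and at 10.6, 11.1, 13.3 and 12.8 CPM with chaetocin. Its groups were separate too, with more spread among the chaetocin libraries, and it rose by 0.96 ± 0.10 (SE) on the log2 scale (edgeR adjusted p = 1.1e-09). The 95% intervals of the log2 fold changes, 2.53 to 2.83 for Ccne2 and 0.76 to 1.17 for Ccne1, did not overlap.

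The order of the E-type cyclins was therefore reversed. Per length, Ccne1 was the more abundant with TGF-β alone, at 2.94 ± 0.08 FPKM against 1.70 ± 0.16 FPKM for Ccne2 (SD, n = 4). With chaetocin Ccne2 stood at 11.8 ± 0.70 FPKM and Ccne1 at 6.23 ± 0.72 FPKM. The share of Ccne2 in the E-type sum was 34.4% to 38.3% across the TGF-β libraries and 63.0% to 67.4% in the chaetocin libraries. The E-type sum was 0.03 of the D-type sum with TGF-β alone and 0.07 of it with chaetocin, on the FPKM scale.

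**Figure D2:**
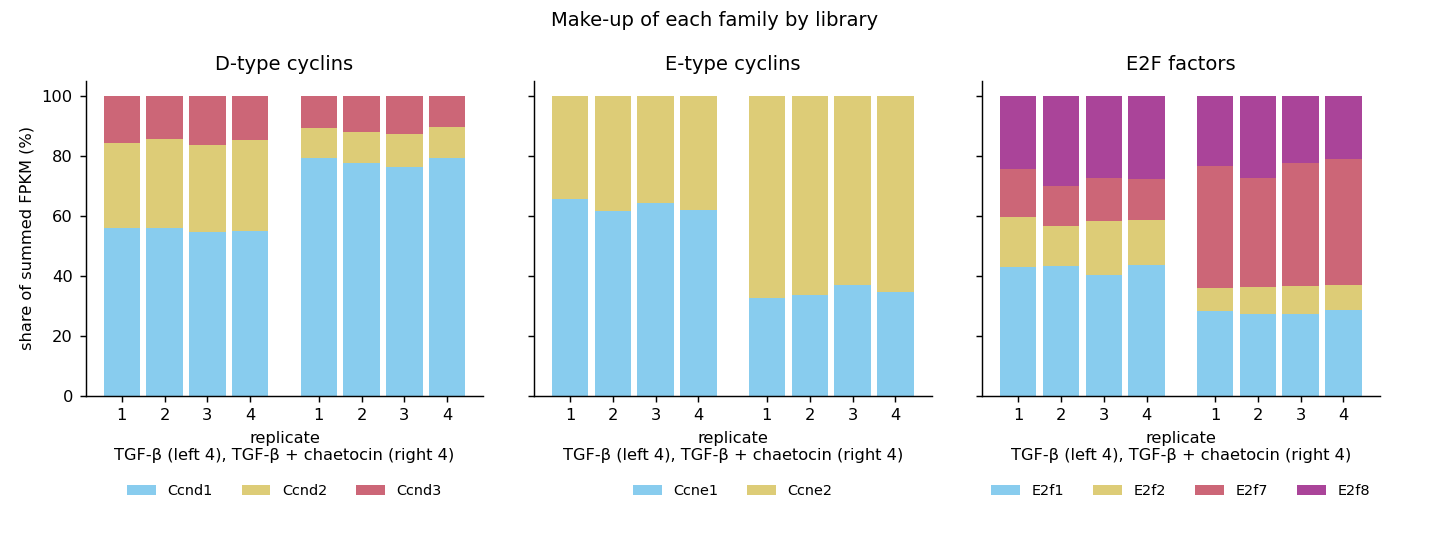
Share of each paralog in the summed FPKM of its family (vertical axis, percent), 1 bar per library, with the 4 TGF-β libraries on the left of each panel and the 4 chaetocin libraries on the right. The Ccnd1 share rises from 55.4% to 78.2% on average, the Ccne2 share from 36.6% to 65.6% and the E2f7 share from 14.3% to 40.04%, and in each of these the libraries of the groups do not overlap.

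Ccna2, the cyclin of S phase and early mitosis that binds CDK2 and CDK1, rose moderately. It was at 15.0, 14.3, 15.2 and 12.0 CPM with TGF-β alone and at 22.9, 21.2, 25.5 and 23.7 CPM with chaetocin. TGF-β replicate 4 was the lowest library, and the groups did not overlap. The log2 fold change was 0.73 ± 0.07 (SE; edgeR adjusted p = 8.5e-10), from 14.1 ± 1.47 to 23.3 ± 1.77 CPM (SD, n = 4 per group).

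Among the E2F genes the atypical repressor E2f7 had the largest rise of all 10 genes. It was at 3.72, 3.71, 4.10 and 3.56 CPM with TGF-β alone and at 25.1, 22.6, 24.7 and 25.3 CPM with chaetocin, from counts of 72 to 83 and 353 to 588. The libraries of each group lay close together and far from those of the other. The log2 fold change was 2.70 ± 0.08 (SE; edgeR adjusted p = 3.7e-21), or 6.48-fold. Its 95% interval of 2.52 to 2.87 overlapped that of Ccne2. E2f8, which works with E2f7, was at 4.73, 6.08, 5.53 and 5.10 CPM with TGF-β alone and at 11.9, 13.7, 10.9 and 10.1 CPM with chaetocin. Every chaetocin library was above every TGF-β library, and E2f8 rose by 1.12 ± 0.11 (SE) on the log2 scale (edgeR adjusted p = 3.9e-10), with an interval of 0.90 to 1.35 that lay below that of E2f7.

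The activator genes rose less. E2f1, the best known activator of S phase genes, was at 6.16, 6.80, 6.27 and 6.12 CPM with TGF-β alone and at 10.9, 10.3, 10.1 and 10.5 CPM with chaetocin. Both groups were narrow and separate, and the log2 fold change was 0.72 ± 0.09 (SE; edgeR adjusted p = 8.0e-08). E2f2, a second activator, had counts of 71 to 98 with TGF-β alone and 84 to 117 with chaetocin, the latter the lowest of the 10 genes in that group. It was at 4.23, 3.66, 4.84 and 3.65 CPM with TGF-β alone and at 5.0, 5.88, 6.14 and 5.36 CPM with chaetocin. TGF-β replicate 3 and chaetocin replicate 1 nearly met. E2f2 rose by 0.44 ± 0.13 (SE) on the log2 scale (edgeR adjusted p = 0.00372), and limma on log2(FPKM + 1) gave 0.29.

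**Figure D3:**
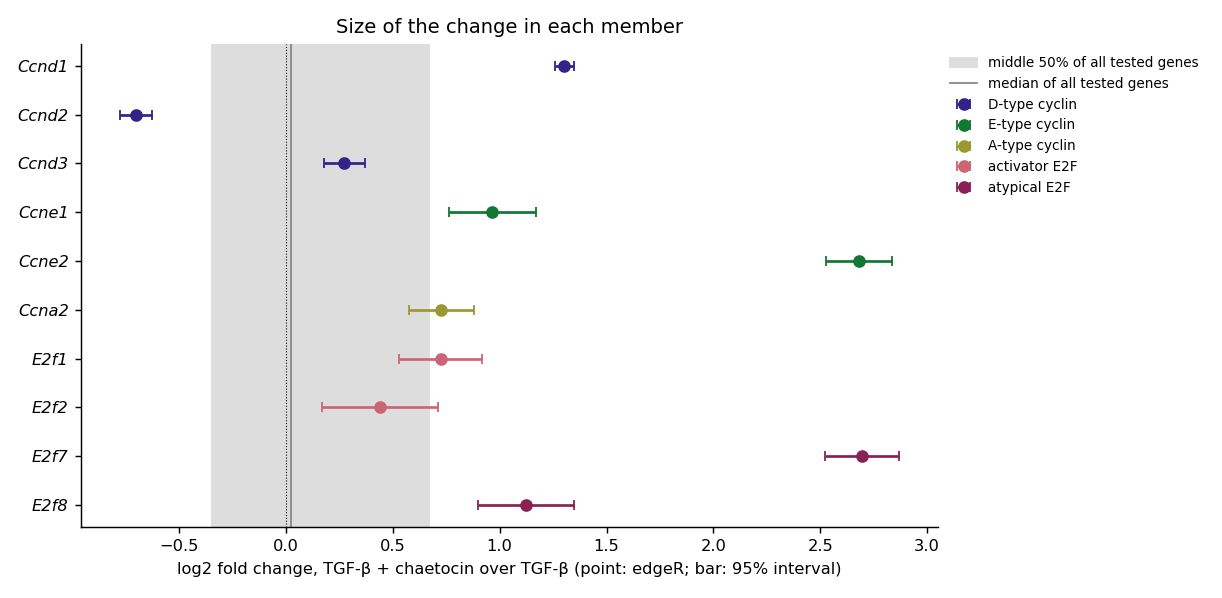
Log2 fold change of each gene, TGF-β with chaetocin over TGF-β alone (horizontal axis), as the edgeR estimate with its 95% interval, coloured by role. The grey band, -0.35 to 0.67, holds the middle 50% of all tested genes; the E2f7 and Ccne2 points lie at 2.70 and 2.68, far to the right of it, and Ccnd2 is the only point left of it.

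The balance between atypical and activator factors was compared per length. The summed FPKM of E2f7 and E2f8 was 0.67 to 0.76 of the sum of E2f1 and E2f2 across the TGF-β libraries and 1.70 to 1.79 of it in the chaetocin libraries. E2f7 went from 14.3% ± 1.05 to 40.04% ± 2.51 of the sum over the 4 E2F genes and E2f1 from 42.5% ± 1.504 to 27.8% ± 0.69 (SD, n = 4). Which gene led with chaetocin depended on the length used. With TMM-scaled CPM divided by the summed exon length of the GENCODE annotation, E2f1 held 35.6% and E2f7 29.2%, and the ratio of atypical to activator sums was 0.46 to 0.53 with TGF-β alone and 1.05 to 1.12 with chaetocin. The ratio was higher in every chaetocin library on both scales.

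By FPKM the order of levels with TGF-β alone was Ccnd1, Ccnd2, Ccnd3, Ccna2, Ccne1, E2f1, Ccne2, E2f8, E2f2 and E2f7, from 78.0 down to 0.75 FPKM. In that order the libraries of Ccne2 and E2f8 overlapped, as did those of E2f2 and E2f7, and no other neighbours did. With chaetocin the order was Ccnd1, Ccnd3, Ccnd2, Ccne2, Ccna2, Ccne1, E2f7, E2f1, E2f8 and E2f2, from 208 down to 1.23 FPKM. There Ccnd3 and Ccnd2, Ccne1 and E2f7, and E2f1 and E2f8 overlapped, although the ratio of Ccnd3 to Ccnd2 was 1.02 to 1.14 within each library. E2f7 thus moved from the last place to the seventh, and Ccne2 from the seventh to the fourth, by their mean FPKM. These places depend on the lengths used. With CPM per kilobase of exon Ccnd3 stayed well below Ccnd2 in both groups, at 0.32 of it with chaetocin. On that scale E2f7 also stayed below E2f1 in both groups, at 0.82 of it with chaetocin.

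In the authors' deposited table the log2 ratio of mean FPKM had the same sign as the edgeR value for each of the 10 genes. The authors' deposited table gave -0.57 for Ccnd2, 2.80 for Ccne2 and 2.93 for E2f7. The largest FDR among the 10 in the authors' deposited table was 0.0121, for E2f2.

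The positions of the genes follow the GENCODE annotation of GRCm38, the build that the submitters' processing notes name. All 10 are protein-coding. Ccnd1 (ENSMUSG00000070348) is on chromosome 7, positions 144929931 to 144939925, minus strand, Ccnd2 (ENSMUSG00000000184) on chromosome 6, positions 127125162 to 127152193, minus strand, and Ccnd3 (ENSMUSG00000034165) on chromosome 17, positions 47505051 to 47599691, plus strand. On chromosome 7 is also Ccne1 (ENSMUSG00000002068), positions 38097984 to 38107534, minus strand, Ccne2 (ENSMUSG00000028212) on chromosome 4, positions 11191351 to 11204779, plus strand, and Ccna2 (ENSMUSG00000027715) on chromosome 3, positions 36564865 to 36572150, minus strand. E2f1 (ENSMUSG00000027490) is found on chromosome 2, positions 154559407 to 154569892, minus strand, and E2f2 (ENSMUSG00000018983) on chromosome 4, positions 136172394 to 136196057, plus strand. E2f7 (ENSMUSG00000020185) is placed on chromosome 10, positions 110745439 to 110787384, plus strand, and E2f8 (ENSMUSG00000046179) on chromosome 7, positions 48866429 to 48881596, minus strand.

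The sources used here do not say if reads were counted by strand. Reads from exons shared with a gene on the opposite strand then cannot be assigned to one of the pair. Exons of 7 of the 10 genes share bases with such a gene, and those of Ccne1, E2f1 and E2f2 do not. The largest shares were 23.4% of the exon bases of Ccnd1 with LTO1, 17.4% of Ccne2 with Ints8 and 12.5% of Ccna2 with Exosc9. The log2 fold changes of these partners were 0.15, -0.16 and 0.26. LTO1 was at 21.6 CPM with TGF-β alone and 24.1 CPM with chaetocin, Ints8 at 58.2 and 51.9 CPM, and Exosc9 at 22.1 and 26.5 CPM. With TGF-β alone LTO1 was below Ccnd1 (304 CPM). Ints8 and Exosc9 were above Ccne2 (5.18 CPM) and Ccna2 (14.1 CPM). What reads of the partners add to the values of the 3 cyclins was not tested. Those partners were chosen after their values were seen.

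The windows around the gene starts, 250 bases before to 50 after, were read from a RefSeq table on GRCm38.p6, which held 8 windows of 6 of the 10 genes. Ccnd3 and E2f2 each had 2 windows, for different start sites, and the other 4 genes had 1. Windows of Ccnd1, Ccnd2, Ccne2 and Ccna2 were not analysed here. E2F proteins bind sites written here as TTTCCCGC, TTTCGCGC, TTTGCCGC and TTTGGCGC, searched on both strands. A match was found in 2 of the 8 windows, that of E2f7 and the first of E2f2. A match stood in 2.26% of all 32851 RefSeq windows and in 3.54% of the windows of tested genes. The window of E2f8 had none and is shown for comparison, since E2f8 is the closest relative of E2f7. A link between matches and the size of a change was not tested. Each window is given 5′ to 3′ on the strand of its gene, with E2F matches in capitals. They lie at chr10:110745189-110745488, plus strand, for E2f7, at chr4:136172024-136172323, plus strand, for E2f2, and at chr7:48881547-48881846, minus strand, for E2f8.
E2f7: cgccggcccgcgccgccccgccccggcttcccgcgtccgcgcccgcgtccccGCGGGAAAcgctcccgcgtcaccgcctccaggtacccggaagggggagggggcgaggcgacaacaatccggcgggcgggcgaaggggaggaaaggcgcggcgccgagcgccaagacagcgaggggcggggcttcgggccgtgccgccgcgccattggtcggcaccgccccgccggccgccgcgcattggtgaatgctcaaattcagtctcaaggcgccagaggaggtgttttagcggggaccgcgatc
E2f2: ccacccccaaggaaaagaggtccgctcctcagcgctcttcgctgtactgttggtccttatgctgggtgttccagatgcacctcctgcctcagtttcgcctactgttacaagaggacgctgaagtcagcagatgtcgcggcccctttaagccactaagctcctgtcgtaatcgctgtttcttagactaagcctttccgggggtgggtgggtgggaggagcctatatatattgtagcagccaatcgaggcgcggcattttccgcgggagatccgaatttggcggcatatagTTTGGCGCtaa
E2f8: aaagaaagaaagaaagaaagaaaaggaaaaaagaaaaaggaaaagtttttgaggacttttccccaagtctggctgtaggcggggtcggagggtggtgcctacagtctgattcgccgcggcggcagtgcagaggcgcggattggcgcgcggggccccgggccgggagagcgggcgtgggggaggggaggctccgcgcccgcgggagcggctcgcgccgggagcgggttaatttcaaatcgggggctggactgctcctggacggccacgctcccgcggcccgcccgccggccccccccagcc

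In E2f7 the match was GCGGGAAA, the reverse complement of TTTCCCGC, and began at position -198 counted from the start site. In E2f2 it was TTTGGCGC and began at 39 bases past the start site. The CCAAT box, the site of NF-Y, was found on either strand in 5 of the 8 windows, both of E2f2 and 1 each of Ccnd3, E2f7 and E2f8, and in 37.4% of all windows. The element TTTGAA, known as CHR in promoters of cell cycle genes, was found in 2 of the 8 windows and in 17.9% of all windows. These 2 were the window of E2f8 and the second window of E2f2, which is not printed and has its start site inside the gene, at position 136180782 of chromosome 4. The cAMP response element TGACGTCA and the AP-1 site TGANTCA had no match in the 8 windows and stood in 1.79% and 7.81% of all windows. In windows of tested genes the shares were 37.3% for CCAAT, 12.6% for TTTGAA, 2.78% for TGACGTCA and 5.78% for TGANTCA. A match is a run of letters, and whether any factor binds there was not measured. The window of E2f1, counted among the 8, starts inside the gene as GENCODE draws it and does not reach the GENCODE start. The start site of the first E2f2 window, at position 136172274, lies before the GENCODE start of E2f2, at 136172394.

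The lists of partner genes that follow are set against the 42.0% of all tested genes called higher and the 38.8% called lower, and a count near these shares says nothing about its list. Of 10 kinases and their direct regulators, 4 rose, 5 fell and Cdk7 was not called, with a median log2 fold change of -0.17, and of -0.06 when counts were scaled by total counts alone. These counts were near the 42.0% and 38.8% of all tested genes. Cdk4 and Cdk6, the kinases that D-type cyclins activate, fell by 0.37 and 0.63 on the log2 scale, Cdk6 from 232 ± 5.23 to 150.1 ± 2.94 CPM (SD, n = 4 per group). Cdk1, the kinase of mitosis, rose by 0.91, and Pkmyt1, which holds CDK1 inactive, by 1.84. Chosen after their values were seen, Cdk2 had a log2 fold change of -0.42 and Cdc25a, the phosphatase that activates CDK2, one of -0.53.

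Of 8 CDK inhibitor genes 4 rose and 4 fell, near the 42.0% and 38.8% of all tested genes, with a median of 0.42. Cdkn2b and Cdkn2a, which encode inhibitors of CDK4 and CDK6, fell by 1.47 and 1.04 on the log2 scale. Cdkn2b went from 116 ± 1.86 to 41.7 ± 0.89 CPM (SD, n = 4 per group). Cdkn2c, a further inhibitor of the same kinases, rose by 2.39 and Cdkn1c, an inhibitor of several CDKs, by 1.17. Cdkn1a, chosen after its value was seen, fell by only 0.28 on the log2 scale, from 552 ± 4.46 to 454 ± 7.16 CPM (SD, n = 4 per group). In the retinoblastoma family Rbl1 rose by 0.23, while Rbl2 had a log2 fold change of -0.74 and Rb1 one of -0.28.

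Of 6 other E2F and DP genes 3 were called higher and 3 lower, again near 42.0% and 38.8%. Their median was -0.08, and 0.03 by total counts. Tfdp2, a dimer partner of E2F proteins, fell by 0.80 and the activator E2f3 by 0.40 on the log2 scale. E2f6, a repressor that does not bind retinoblastoma protein, rose by 0.44 and the dimer partner Tfdp1 by 0.32. Thus E2f3 moved against E2f1 and E2f2, the other activators.

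Genes that E2F factors are known to switch on at the G1/S border were mostly higher. Of 44 tested, 41 rose and 1 fell, beside 42.0% and 38.8% of all tested genes, with a median log2 fold change of 0.69. Brca1, a DNA repair gene, rose by 2.83 and Cdt1, which licenses replication origins, by 2.54. Brca1 went from 8.17 ± 0.14 to 58.2 ± 3.31 CPM and Cdt1 from 7.15 ± 0.34 to 41.5 ± 1.61 CPM (SD, n = 4 per group). Nasp, a histone chaperone gene, was the one that fell, with a value of -0.25 on the log2 scale. Ung and Msh6, both DNA repair genes and named after their values were seen, were not called, at log2 fold changes of 0.27 and -0.03. Of 20 genes of G2 and mitosis all 20 rose, with a median of 0.86. They ranged from Ccnb1, chosen after its value was seen, at 0.59 to the cyclin F gene Ccnf at 2.57, with the topoisomerase gene Top2a at 0.84. These lists were chosen with earlier results of the same libraries known, and the counts are descriptions.

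Of 7 MuvB and DREAM genes, whose products hold cell cycle promoters silent in resting cells and activate later ones, 6 rose and 1 fell (median 0.45), beside 42.0% and 38.8% of all tested genes. Mybl1 rose by 1.54 and Dyrk1a by 0.69, while Lin52 fell by 0.49 on the log2 scale. Of 15 genes of cyclin turnover 6 were called higher and 5 lower (median 0.09), near the shares of all tested genes. Scaled by total counts, 9 were higher and 4 lower, where 7180 and 4514 of all 14608 tested genes were. Ambra1, Cks2, Fbxw7 and Usp2 were not called. Fbxo4 and Cdc20 rose by 0.82 and 0.76, and Btrc and Cul1 fell by 0.74 and 0.37 on the log2 scale.

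The remaining cyclins mostly act outside G1/S. Of 17 such genes, 15 were tested, Ccna1 and Ccno being too low, and 6 rose and 4 fell (median 0.04), near the 42.0% and 38.8% of all tested genes. By total counts 9 rose and 3 fell, beside 7180 and 4514 of all 14608 tested genes. With limma on log2(FPKM + 1) 7 rose and 2 fell, beside 5366 and 3945 of all 12271 genes in that fit. Ccnyl1 rose by 0.51, and Ccnjl and Ccnl2 fell by 0.59 and 0.22 on the log2 scale. The exception was Ccnb3, a cyclin of meiosis, which had 0 counts in all TGF-β libraries. Chaetocin libraries held 20 to 48 counts of it, at a mean of 1.90 CPM. That was about 12.7-fold the 0.149 CPM that 3 counts make, before TMM scaling, in the TGF-β library with the lowest total. The median of the list was the same with Ccnb3 at that ratio.

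**Figure D4:**
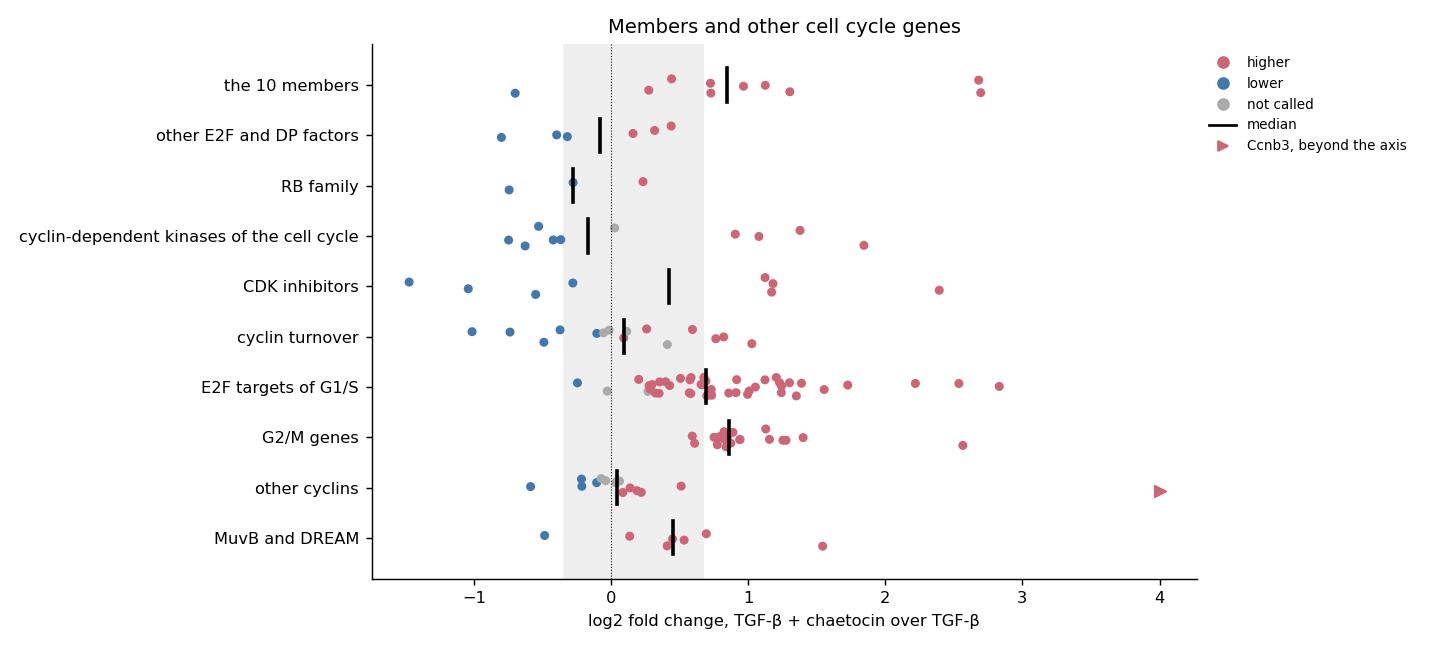
Log2 fold change of single genes, TGF-β with chaetocin over TGF-β alone (horizontal axis), for the 10 G1/S cyclins and E2F factors and 9 lists of related genes (rows); colours give the call of edgeR, black ticks the medians and the grey band the middle 50% of all tested genes. The E2F target and G2/M rows lie almost wholly right of 0, with medians of 0.69 and 0.86, while the kinase, inhibitor and RB family rows spread to both sides. The arrow is Ccnb3, beyond the axis.

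Patterns across the 8 libraries were shared with many other genes. Among 9659 other genes whose log2 CPM averaged 3 or more, the log2 CPM of E2f7 was most like that of Por, the reductase that feeds electrons to cytochrome P450 enzymes, Id2, an inhibitor of basic helix-loop-helix factors, and P4hb, a protein disulfide isomerase, with Pearson correlations of 0.9997, 0.9996 and 0.9995. The correlation was above 0.99 for 760 genes. For Ccnd2 the nearest were Ufl1, a ligase for the modifier UFM1, Septin9, a cytoskeletal GTPase, and Scai, a transcription cofactor, at 0.9988, 0.9971 and 0.9966, and 140 genes were above 0.99. Septin9 was called in counts, at a log2 fold change of -0.46, and not on log2(FPKM + 1), at -0.08 (limma adjusted p = 0.383). The points share the split into 4 and 4 libraries, so these correlations describe the treatment difference more than anything within a group.

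The values of the 10 genes were recomputed under 11 other scalings, filters, tests and units with all libraries, and with each of the 8 libraries left out. Every one of the 10 kept its direction and its call in each. The log2 fold change ran from 1.94 to 2.81 for E2f7, from 2.25 to 2.79 for Ccne2, from 0.83 to 1.24 for E2f8, from 0.29 to 0.55 for E2f2 and from 0.24 to 0.49 for Ccnd3. The lower ends of E2f7, Ccne2, E2f8 and E2f2 were on log2(FPKM + 1), where the added 1 shrinks changes of low genes.

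**Figure D5:**
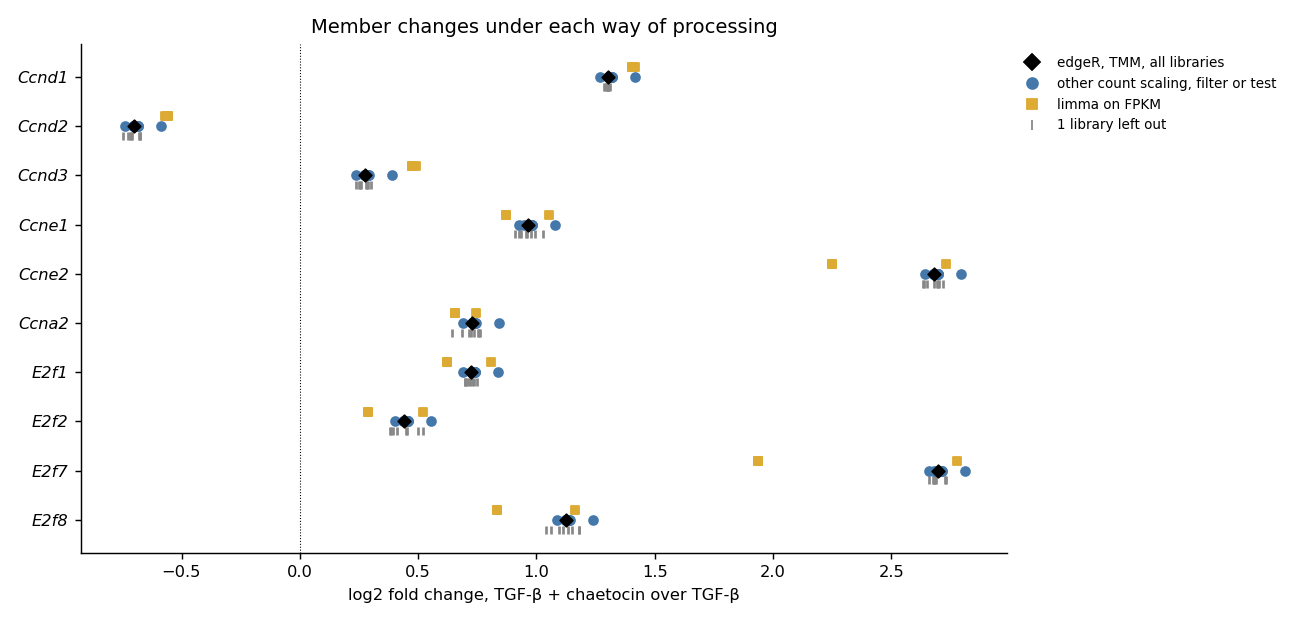
Log2 fold change of each gene (horizontal axis) under each way of processing: edgeR with TMM and all libraries (black diamond), other scalings, filters or tests of the counts (blue), limma on FPKM (yellow squares) and 1 library left out (grey ticks). No marker crosses 0. The yellow squares of Ccnd3 lie apart from its other markers, at up to 0.49 against 0.27 with TMM and 0.39 with total-count scaling.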

How the data were processed

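The authors deposited 1 table. Per the file headers it holds, for every gene, a read count (whole numbers) and the FPKM in each library, plus mean FPKM for both groups. It also holds the authors' log2 ratio and, from an unnamed test, a p-value and an FDR. The build was GRCm38 (mm10), per the submitters' processing notes. The sources used here do not name the aligner, counter or annotation release. The table held 0 columns of other samples. The members and the gene lists were chosen with earlier results of these data known.

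Libraries were grouped by the treatment label. Counts were fitted over the whole table with edgeR 4.0.16 in R 4.3.3 (filterByExpr, TMM, glmQLFTest, treatment as the only term), with Benjamini-Hochberg adjustment over 14608 genes and a call at 0.05. The SE is the log2 fold change divided by the root of F. The fit was tested on simulated data. The common biological coefficient of variation was 2.94%. Within a group, replicates differed by more than counting noise, with 2.04 to 2.61 as the mean chi-square per gene. That excess cannot tell separate cultures from technical repeats. Each library was counted once. A count of 3 was 0.127 to 0.208 CPM before TMM scaling. No pairing by replicate number was used in the main fit. Alternatives used DESeq2 1.42.0, limma 3.58.1, FPKM with a pseudocount of 1 or 0.1, other filters and scalings, a replicate block and libraries left out. FPKM genes had to exceed 1 in 4 libraries. Named genes were the 10 members, for each list the 2 called genes with the smallest p in each direction, and the 3 genes of log2 CPM averaging 3 or more and no predicted or clone name that correlated best with the largest rise and the largest fall. This gave 47 genes, and others are said to be chosen after their values were seen.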

Additional observations from a re-analysis of the deposited data

Results flagged for a closer look

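Groups of 4 libraries were searched for 1 library set apart from the other 3, by the gap to its neighbour over the range of the group. Of 98 groups searched, 4 stood out, where chance alone gives about 5%. TGF-β replicate 3 was the highest of its group for Ccnd3, at 43.5 CPM against 39.2 to 39.9 CPM in the others, and for Cdt1, at 7.66 CPM against 6.96 to 7.0 CPM. Chaetocin replicate 2 was the lowest for E2f3, at 34.8 CPM against 35.7 to 35.9 CPM. The total count of chaetocin replicate 1 was 22591935 against 14421225 to 15084876 in the other chaetocin libraries. Without that library 9 of the 10 genes were still called higher and 1 lower.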

How the results depend on the processing

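All 10 genes kept direction and call under the alternatives run. Genes called over the table were 6129 higher and 5662 lower, and 5337 to 8306 higher and 3913 to 6065 lower under the alternatives with all libraries. The number of higher calls was largest with limma on unfiltered log2(FPKM + 1), with 8306 higher and 3968 lower of 22274 genes. With total-count scaling 7180 were higher and 4514 lower of 14608. Scaling by total counts moved the median of all genes from 0.02 to 0.14 on the log2 scale. The labels do not say if equal replicate numbers mark a shared culture or batch. Correlations of same-numbered deviations were -0.01 to 0.03. No shared deviation was thus seen, which cannot exclude a pairing. With the replicate block 6105 genes were higher and 5643 lower, and the 10 genes were again 9 higher and 1 lower. With chaetocin replicate 1 thinned to the mean depth of the other 3, an alternative chosen after seeing the data, the 10 genes were also 9 higher and 1 lower.

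The shares within families moved when CPM per kilobase of exon replaced FPKM, which uses other lengths by construction. With TGF-β alone they were 66.1% for Ccnd1, 4.75% for Ccnd3, 39.3% for Ccne2, 47.3% for E2f1 and 9.86% for E2f7. With chaetocin they were 87.3% for Ccnd1, 9.61% for Ccnd2, 3.07% for Ccnd3, 68.0% for Ccne2, 35.6% for E2f1 and 29.2% for E2f7. Counting only 150 bases before the start left an E2F match in 1 window instead of 2. Of the other cyclins, 7 rather than 6 were called higher and 2 rather than 4 lower with limma on FPKM. That held with either pseudocount and without the filter. With a pseudocount of 1 and the filter, 5366 of all 12271 genes were called higher and 3945 lower.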

Other observations

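The length that the deposited FPKM values imply for a gene (counts per FPKM and per total counts of the library) was not constant for every gene. For Ccnd1 it was 3740 bases in each library. For Ccnd3 it ran from 1737 to 1907 bases with TGF-β alone and from 1509 to 1855 bases with chaetocin, and for E2f7 from 4504 to 5109 and from 4389 to 4505 bases. The summed exons of Ccnd3 and E2f7 in GENCODE are 8775 and 9009 bases long. The sources used here do not say how the lengths were set. The Ccnd3 log2 fold change was 0.27 on counts with TMM scaling and 0.39 on counts scaled by total counts alone. On FPKM it was 0.48 to 0.49. How much of the gap comes from the lengths was not tested.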
